A study of Mus musculus with 12 samples.

Results

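The AP-1 transcription factors Fos, Fosb, Fosl2, Jun, Junb and Jund, their repressor Jdp2 and the stress-induced factor Atf3 were followed over the day in the mouse prefrontal cortex. All probe sets annotated to 1 of these 8 genes alone were taken, which gave 12 of the 45037 probe sets that are not array controls. Of these 12, 9 probe sets of 7 genes were among the brightest 54.5% of probe sets, which were tested, and the 3 dim ones are described at the end. The study asked which transcripts of this tissue vary over a cycle of light and darkness. Tissue came from young adult C57BL/6J mice kept with equal hours of light and darkness, with 3 mice at ZT15 and 3 at ZT21 in the dark phase, and 3 mice at ZT3 and 3 at ZT9 in the light phase. ZT is Zeitgeber time, counted in hours from lights on. Each mouse was 1 of 12 Affymetrix Mouse430_v2 arrays, so the spread between arrays of 1 time includes the spread between mice. No treatment other than the light cycle is named, and tissue of the dark phase was taken under red light. Values are log2 of the deposited signal intensity, and a probe set's level was set only against its own level on other arrays.

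AP-1 is a dimer of basic leucine zipper proteins, in which a Fos protein pairs with a Jun protein, or 2 Jun proteins pair with each other, on a short DNA element in the promoters and enhancers of target genes. Fos, Fosb and Junb are immediate early genes, whose transcription starts within minutes of calcium and kinase signalling without new protein synthesis, which is why their RNA is widely used as a mark of recently active neurons. Jdp2 pairs with Jun proteins and with Atf2, occupies AP-1 and cAMP response elements and represses transcription there.

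Sequences before the start sites are shown because 4 pairs among Fos, Junb, Fosb and Fosl2 were correlated between mice of 1 time, as given further on. The windows are the 250 bases before each RefSeq start on GRCm38.p6, read 5′ to 3′ on the strand of the gene. Capitals mark TGACG, the core of the cAMP response element through which CREB family proteins bind, searched on both strands and held by 17.8% of 32851 such windows.
Fos (chr12:85473640-85473889, plus strand): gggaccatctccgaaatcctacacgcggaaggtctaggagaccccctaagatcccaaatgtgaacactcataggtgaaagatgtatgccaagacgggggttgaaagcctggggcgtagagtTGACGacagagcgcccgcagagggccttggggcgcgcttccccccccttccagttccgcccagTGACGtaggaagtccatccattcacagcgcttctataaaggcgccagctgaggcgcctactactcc
Junb (chr8:84978749-84978998, minus strand): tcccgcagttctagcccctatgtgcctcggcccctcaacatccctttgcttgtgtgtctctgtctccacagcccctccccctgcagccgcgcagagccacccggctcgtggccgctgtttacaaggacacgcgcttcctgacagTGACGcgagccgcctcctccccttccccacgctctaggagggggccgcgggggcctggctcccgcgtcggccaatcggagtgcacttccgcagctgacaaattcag
Both matches of Fos lie 129 to 125 and 66 to 62 bases before the start, and the match of Junb lies 106 to 102 bases before it. Shorter stretches show the element in Fosb and before the second of the 3 annotated starts of Jdp2. Both lie before the start used, but within the annotated extent of their gene.
Fosb (chr7:19310088-19310117, minus strand): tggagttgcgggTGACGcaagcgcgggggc
Jdp2 (chr12:85599290-85599319, plus strand): tccgtccccctcTGACGtgtggagctggca
The window of Jun held no TGACG but held TGACNTCA, a variant of the same element that was found in 7.49% of windows and that includes TGACG where N is G.
Jun (chr4:95052249-95052278, minus strand): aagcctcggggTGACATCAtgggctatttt
Atf3 held TGACG on the opposite strand, 7 to 3 bases before its start, and the windows of Fosl2, which was in 2 of the correlated pairs, and of Jund held none of the elements searched. The AP-1 element TGANTCA (6.75% of windows), the E-box CACGTG (6.02%) and the CArG box bound by Srf (1.47%) were in no window of the 8 genes. A match describes the letters only, and a missing match says nothing of sites outside the window.

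Jdp2 had the smallest p of the 9 tested probe sets, with levels that were higher in every mouse of the dark phase than in any of the light phase. Its probe set 1450350_a_at measured 9.33, 9.26 and 9.14 log2 units in the 3 mice at ZT3, and 9.47, 9.44 and 9.30 at ZT9. It measured 9.88, 9.92 and 10.46 at ZT15, and 9.84, 9.74 and 9.96 at ZT21. All 6 mice of the dark phase lay above all 6 mice of the light phase, a separation in this direction that 0.473% of the tested probe sets showed. Jdp2 averaged 9.97 ± 0.25 in the dark phase and 9.32 ± 0.12 in the light phase (SD, n = 6 each). The difference was 0.64 log2 units (SE 0.10), or 1.56-fold, with an adjusted p of 0.047 from limma over the tested probe sets. Jdp2 was thereby 1 of 23 probe sets called in this contrast at the 0.05 threshold (background 0.0937%), all of them higher in the dark phase, and the other 8 probe sets of the AP-1 genes were not called.

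Jdp2 was also called between the early hours of the phases. At ZT15 against ZT3, Jdp2 was higher by 0.84 log2 units (SE 0.14), or 1.79-fold, and this was 1 of 54 calls in that contrast (limma adjusted p = 0.042, background 0.22%). This call held in limma without mouse 1 of ZT9 or mouse 1 of ZT15 and was lost without any 1 of the other 10 mice, with differences of 0.66 to 0.95 and adjusted p of 0.040 to 0.225 over the 12 omissions, and it was also lost with all probe sets tested (0.087). At ZT21 against ZT9 the difference was 0.44 (SE 0.14, limma adjusted p = 0.271), although all 3 mice at ZT21 lay above all 3 at ZT9, as in 5.24% of tested probe sets. The difference between these contrasts was 0.40 (SE 0.20) and was not called (limma adjusted p = 0.487). In order of level the times ran ZT3, ZT9, ZT21 and ZT15, and the ranges of ZT3 and ZT9 overlapped, as did those of ZT21 and ZT15. Over all 4 times, the moderated F-test gave Jdp2 an adjusted p of 0.0881 in limma, under the false discovery rate of 0.20 that the methods used. This F call was lost without mouse 2 of ZT3 (adjusted p = 0.273) or without mouse 3 of ZT3 (0.253). The dark-phase call held in limma without mouse 1 of ZT9, mouse 1 of ZT15 or mouse 3 of ZT15 and was lost without any 1 of the other 9 mice, with differences of 0.55 to 0.69 and adjusted p of 0.018 to 0.158 over all 12 omissions. It was also lost after centring each array on its median (limma adjusted p = 0.058) and with all probe sets tested (0.095).

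**Figure D1:**
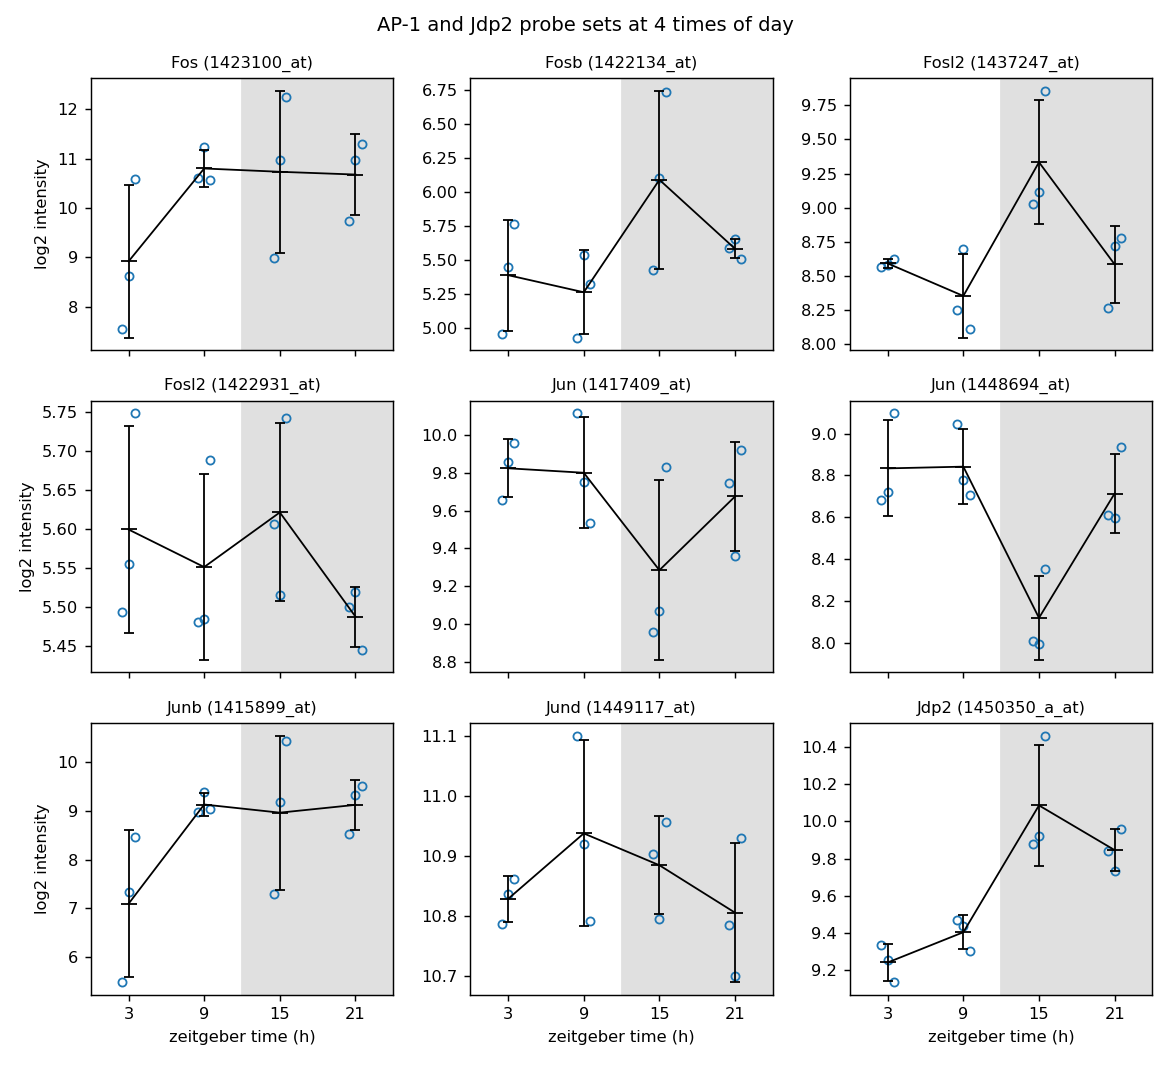
Log2 signal intensity (y axis, a separate scale in each panel) of the 9 tested AP-1 and Jdp2 probe sets against Zeitgeber time in hours (x axis). Circles are single mice, black marks and bars are the mean and SD of the 3 mice of a time, and grey marks the dark phase: the 6 dark-phase mice of Jdp2 lie above the 6 light-phase mice, the ZT15 mice of Jun 1448694_at lie lowest, and the mice of Fos and Junb are far apart at ZT3 and ZT15.

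Jun had its lowest level early in the night, when Jdp2 was highest. Jun encodes the main activating partner in AP-1 dimers and is among the proteins that Jdp2 pairs with. Its probe set 1448694_at measured 8.68, 8.72 and 9.10 at ZT3, and 9.04, 8.78 and 8.71 at ZT9. It measured 8.01, 7.997 and 8.35 at ZT15, and 8.61, 8.60 and 8.93 at ZT21. The 3 mice at ZT15 lay below the other 9 mice, as in 0.387% of tested probe sets, and the ranges of the other 3 times overlapped. The range between the ZT15 and ZT9 means was 0.72 log2 units (SE 0.15), and Jun passed the F-test over the 4 times (limma adjusted p = 0.165). Jun and Jdp2 were the 2 of 9 probe sets called by this test, against 473 calls, or 1.93%, among all tested probe sets. Without any 1 of 7 mice (mouse 2 or 3 of ZT3, mouse 2 of ZT9, mouse 1 or 2 of ZT15, mouse 1 or 2 of ZT21) Jun lost this call, with limma adjusted p of 0.217 to 0.349, and it was also lost with all probe sets tested (0.262).

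At ZT15 against ZT3, Jun 1448694_at was lower by 0.72 log2 units without passing the threshold of 0.05 (difference -0.72, SE 0.15, limma adjusted p = 0.088). Its dark-phase mean was 8.42 ± 0.37 and its light-phase mean 8.84 ± 0.18 (SD, n = 6 each), a difference of -0.42 (SE 0.11, limma adjusted p = 0.176). The second probe set of Jun, 1417409_at, also had its lowest mean at ZT15, but its mice were further apart. It measured 9.66, 9.86 and 9.95 at ZT3, 10.11, 9.75 and 9.53 at ZT9, 8.96, 9.07 and 9.83 at ZT15, and 9.74, 9.36 and 9.92 at ZT21. Of the ZT15 mice, mouse 3 lay among the other times, and the range of 0.54 (SE 0.23) was not called (limma adjusted p = 0.406).

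Fosl2, which encodes the Fos-related protein Fra-2, had its highest mean at ZT15 by both of its probe sets, and limma did not call either over the 4 times. Probe set 1437247_at measured 8.57, 8.58 and 8.63 at ZT3, and 8.25, 8.70 and 8.11 at ZT9. It measured 9.03, 9.12 and 9.86 at ZT15, and 8.26, 8.72 and 8.77 at ZT21. All 3 mice at ZT15 lay above the other 9, as in 1.18% of tested probe sets. The range of 0.98 log2 units (SE 0.22), between the ZT15 mean of 9.33 and the ZT9 mean of 8.35, gave an adjusted p of 0.210 in limma's F-test, on the other side of the 0.20 threshold. The second probe set, 1422931_at, lay between 5.44 and 5.75 in all 12 mice, with a range of 0.13 over the times (limma adjusted p = 0.745). The probe sets of Fosl2 thus disagreed on the size of the change over the day.

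Fos, the founding member of the Fos family, spread widely between mice, and no difference between its means over the day was called by limma. It measured 7.54, 8.62 and 10.59 in the 3 mice at ZT3, and 10.60, 11.24 and 10.57 at ZT9. It measured 8.99, 10.97 and 12.25 at ZT15, and 9.75, 10.98 and 11.31 at ZT21. The mice at ZT15 covered 3.26 log2 units and those at ZT3 3.04, and the lowest mouse of ZT15 lay below the highest of ZT3. Fos averaged 10.71 ± 1.16 in the dark phase and 9.86 ± 1.44 in the light phase (SD, n = 6 each), a difference of 0.85 (SE 0.58, limma adjusted p = 0.502). The mean at ZT3 was the lowest, 1.89 (SE 0.82) below that at ZT9, and the F-test did not call Fos (limma adjusted p = 0.395).

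Junb, a Jun protein with weaker activating properties than Jun, had the same form. Its values were 5.48, 7.33 and 8.47 at ZT3, 8.96, 9.39 and 9.03 at ZT9, 7.29, 9.17 and 10.42 at ZT15, and 8.53, 9.31 and 9.51 at ZT21. All 3 mice at ZT9 and all 3 at ZT21 lay above the 3 mice at ZT3, which 13.1% and 18.0% of tested probe sets also showed. The range was 2.03 (SE 0.76, limma adjusted p = 0.330), and the dark-phase mean of 9.04 ± 1.05 exceeded the light-phase mean of 8.11 ± 1.47 (SD, n = 6 each) by 0.93 (SE 0.54, limma adjusted p = 0.428).

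Fosb, whose truncated product accumulates in neurons after repeated stimulation, was closer to Jdp2 in timing but not in precision. It measured 4.95, 5.45 and 5.76 at ZT3, 4.93, 5.53 and 5.32 at ZT9, 5.43, 6.10 and 6.73 at ZT15, and 5.58, 5.65 and 5.51 at ZT21. The ZT15 range overlapped all others, and the difference of 0.51 between dark and light (SE 0.21) was not called (limma adjusted p = 0.278). Jund, the Jun family member with the steadiest transcription, stayed between 10.70 and 11.10 in all 12 mice. Its range over the times was 0.13 (SE 0.10, limma adjusted p = 0.743).

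**Figure D2:**
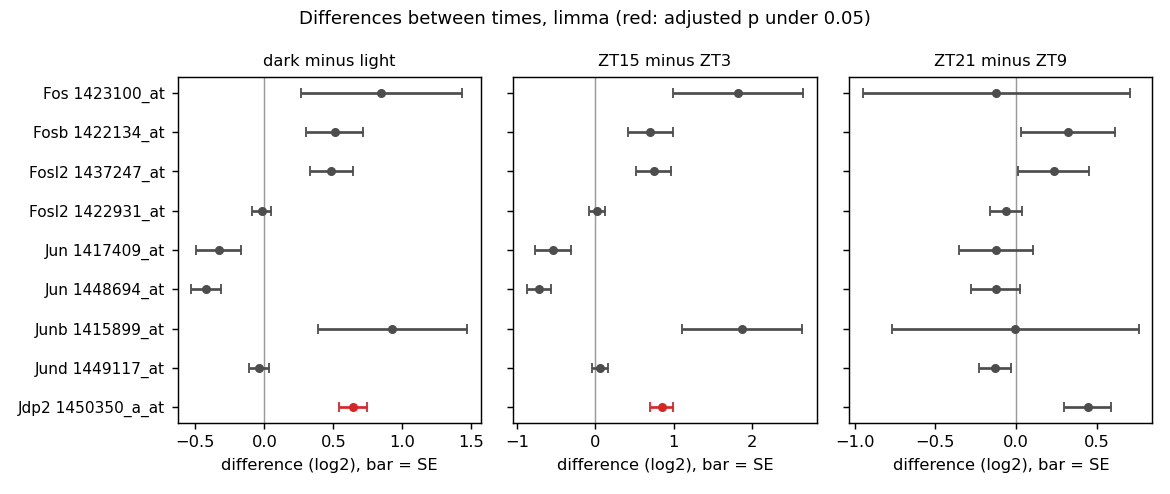
Differences in log2 signal intensity (x axis) of the 9 tested probe sets, 1 on each line, for dark minus light, ZT15 minus ZT3 and ZT21 minus ZT9. Points are limma estimates, bars are 1 SE and red marks an adjusted p under 0.05, which Jdp2 reached in the first pair of panels, while the bars of Fos and Junb are the widest.

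Across the 9 probe sets, 5 were higher and 4 lower in the dark phase, with a median difference of 0.49 log2 units, against 0.01 over all tested probe sets. At ZT15 against ZT3 the median was 0.70 for these 9 and 0.05 for all. At an unadjusted p under 0.05, 7 of 9 passed in that contrast (12.5% of all tested) and 4 of 9 in dark against light (15.3%). Both Jun probe sets were among the 7 and were lower at ZT15 (-0.54 and -0.72). Jun 1448694_at was also among the 4 and was lower in the dark phase (-0.42). All were measured in the same mice, so the 7 are not separate observations. No AP-1 or Jdp2 probe set was called by limma at ZT21 against ZT9, where 1 tested probe set in all was called (0.00407%) and 1 of 9 passed at an unadjusted p under 0.05 (13.3% of all). Between neighbouring times no member was called by limma either, against 0.0448%, 0.126%, 0.0122% and 0.0204% of tested probe sets from ZT3 to ZT9, ZT9 to ZT15, ZT15 to ZT21 and ZT21 to ZT3. At an unadjusted p under 0.05 these steps gave 2, 5, 2 and 2 of the 9, against 11.5%, 7.19%, 9.68% and 19.2% of all tested. The difference of ZT15 minus ZT9 was largest beside its error in Fosl2 1437247_at (0.98, limma adjusted p = 0.186), Jun 1448694_at (-0.72, 0.144) and Jdp2 (0.68, 0.143). By multiclass SAM, the permutation test named in the methods, 5 of 9 had a q under 0.20, against 7.41% of all tested probe sets: Jdp2 (0.065), Jun 1448694_at (0.124), Fosl2 1437247_at (0.132), Junb (0.169) and Fos (0.198).

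The spread between mice of 1 time set the members apart from each other. Its SD was 1.22 log2 units for Fos and 1.13 for Junb, places 8 and 12 among the tested probe sets in descending order, where the median was 0.17. Their ranges over the day were also among the largest, at places 18 and 14. Fosb came next with an SD of 0.42 (place 670). Jdp2, at 0.18, and Jun 1448694_at, at 0.20, had ordinary spreads (places 10725 and 8855), with ranges at places 553 and 1034. Fosl2 1437247_at held place 260 by range and 2353 by spread. Jund and Fosl2 1422931_at, both at 0.11, were below the median in spread and in range.

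**Figure D3:**
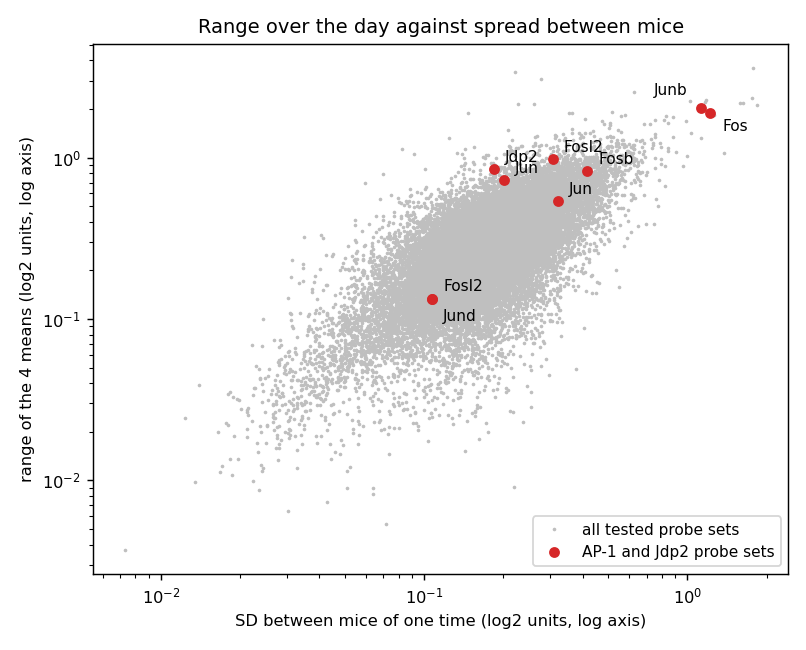
Range of the 4 time means (y axis) against the SD between mice of 1 time (x axis), both in log2 units on log axes. Grey dots are all tested probe sets and red dots the 9 AP-1 and Jdp2 probe sets: Fos and Junb lie at the upper right, where both measures are large, and Jdp2 has a range of 0.84 at an SD of 0.18.

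Within a time, the mice that were high in Fos were the same mice that were high in Junb. Each gene's values were set against the mean of their own time, by the brighter probe set of each gene, and all 21 pairs of the 7 tested genes were compared over the 12 mice. The exact permutation of mice within times allows no p under 0.000772. Fos and Junb correlated with Pearson's r of 0.97 (exact p = 0.00154, adjusted over the 21 pairs 0.0162) and Spearman's rho of 0.91 (exact p = 0.00617). At each of the 4 times the same mouse was highest in both. Without the 2 mice farthest from the median of Fos, r was 0.99. In each other pair, the 2 mice left out below were likewise those farthest from the median of 1 gene. That gene was the earlier in the order Fos, Fosb, Fosl2, Jun, Junb, Jund and Jdp2, so the mice can differ between pairs. When each mouse was left out in turn, which leaves fewer orders of mice, r stayed between 0.95 and 0.99. The pair then missed the threshold in 4 of 12 omissions, those of mouse 2 of ZT9 and of each mouse of ZT21 (exact permutation, adjusted p of 0.0729 to 0.0972).

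Fos and Fosl2 gave r of 0.69 and rho of 0.77 (exact p = 0.000772 for both, the smallest possible, adjusted 0.0162), and r was 0.85 without 2 mice. Fosb and Junb gave r of 0.90 and rho of 0.80 (exact p = 0.00926 and 0.0201, adjusted 0.0486 for r and 0.105 for rho, so that only r passed), and r was 0.93 without 2 mice (adjusted p = 0.204). This pair passed in 1 of the 12 omissions, that of mouse 3 of ZT21, with r of 0.83 to 0.94 over all 12. Fos with Fosl2 passed in 8, all but those of mouse 2 of ZT9 and the mice of ZT21, and Fosl2 with Junb in 4, those of mouse 1 of ZT3 and the mice of ZT15. Fosl2 and Junb gave r of 0.63 and rho of 0.80 (exact p = 0.00463 and 0.00231, adjusted for r 0.0324), with r of 0.41 without 2 mice. Fos and Fosb had r of 0.86 and rho of 0.74 (exact p = 0.0162 and 0.0417), which missed the threshold after adjustment (adjusted for r 0.0567) and gave r of 0.84 without 2 mice. With all 12 mice, the 4 pairs that passed the test were all among Fos, Fosb, Fosl2 and Junb. Mouse 3 of ZT15 was the highest of all 12 mice in each of these genes, and also in Jdp2 (10.46).

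Jdp2 did not share this order of mice to a degree that passed the test. Its r was 0.36 with Fos and 0.36 with Junb (exact p = 0.552 and 0.576, adjusted 0.637 for both), and rho was 0.27 and 0.36 (exact p = 0.546 and 0.434). Without 2 mice these r were 0.72 with Fos (exact p = 0.273) and 0.48 with Junb (exact p = 0.639). Both values hung on single mice, as r with Fos ran from -0.28 without mouse 3 of ZT15 to 0.66 without mouse 3 of ZT3, and r with Junb from -0.33 without mouse 3 of ZT15 to 0.64 without mouse 1 of ZT3. With Fosb its r was 0.43 (exact p = 0.615, adjusted 0.646), with rho of 0.09 (exact p = 0.86). Without the 2 mice farthest from the median of Fosb, r was -0.37, so the value rests on those mice. With Fosl2 its r was 0.72 and rho 0.55 (exact p = 0.103 and 0.191, adjusted for r 0.225), and r was -0.02 without 2 mice. With Jun its r was 0.81 and rho 0.75 (exact p = 0.037 and 0.0386, adjusted for r 0.111), and r was 0.52 without 2 mice. In all these pairs Jun stands for its brighter probe set 1417409_at, which was not called over the 4 times. No correlation was computed for 1448694_at, the Jun probe set that was called. Jun with Jdp2 passed in 1 of the 12 omissions, that of mouse 1 of ZT3 (r of 0.91, exact permutation, adjusted p = 0.0486). All arrays share 1 normalization, and Jun with Jund, at r of 0.79 (exact p = 0.0139, adjusted 0.0567) and rho of 0.76 (exact p = 0.027), gave r of 0.44 after quantile normalization and 0.95 without 2 mice (adjusted p = 0.0486). That pair also passed without mouse 1 or mouse 2 of ZT15 (r of 0.91 and 0.76, exact permutation, adjusted p = 0.0243 for both). Whether the correlations with Jdp2 differ from those among the Fos genes was not tested.

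**Figure D4:**
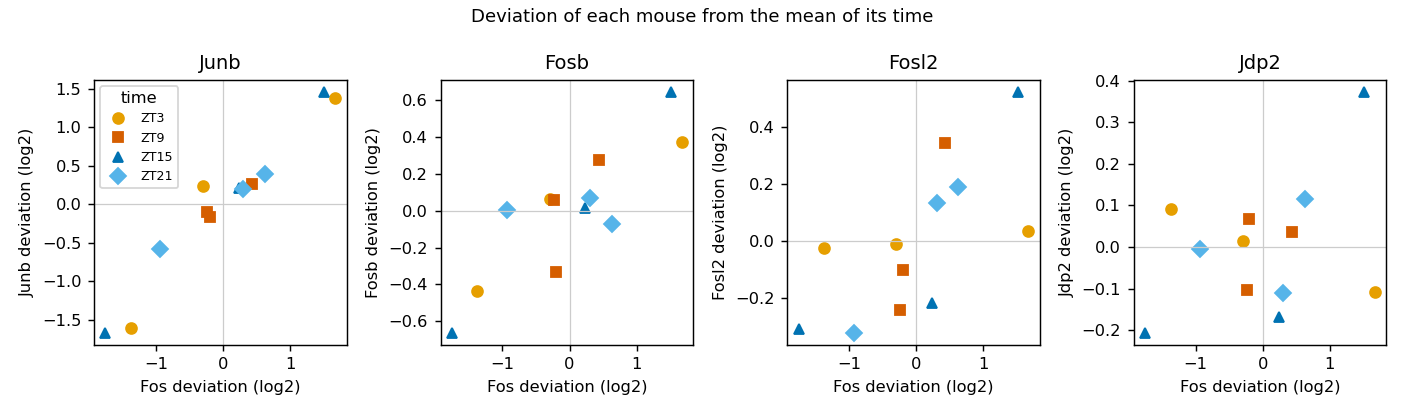
Deviation of Junb, Fosb, Fosl2 and Jdp2 from the mean of their time (y axes, log2 units) against the deviation of Fos (x axes, log2 units) in the 12 mice, with the 4 times by colour and shape. Junb runs along a line with Fos (r of 0.97), and Jdp2 shows a loose cloud in which mouse 3 of ZT15 lies far from the rest (r of 0.36, or -0.28 without that mouse and 0.66 without mouse 3 of ZT3).

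The genes with the course most like that of Fos, by Pearson's r over the 12 arrays, were Egr2 (0.98), Arc (0.98), Junb (0.98), Nr4a1 (0.97) and Dusp1 (0.97). Egr2 and Nr4a1 encode inducible transcription factors, Arc a synaptic protein and Dusp1 a phosphatase of MAP kinases. For Jdp2 they were Sbk1 (0.97), Jade2 (0.97), Cry1 (0.96), Gramd1b (0.96) and Cdyl2 (0.95). Cry1 is a core repressor of the circadian clock. These 12 points include the time means, and no p is given for them.

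Among other immediate early genes, 15 of 16 listed were tested. In the dark phase 15 of 15 had a higher mean, also after quantile normalization and median centring. Of all tested probe sets, 12748 were higher and 11798 lower in the dark phase. The list's median difference was 0.78, against 0.01 over all tested probe sets. These genes were measured in the same mice, so the 15 are not separate observations. Between dark and light, 8 of 15 passed at an unadjusted p under 0.05 in limma (15.3% of all tested). At an adjusted p under 0.05, 1 was called, Ier5 (0.0937% of all). The smallest differences were 0.06 for Btg2 and 0.28 for Ccn1 (limma, unadjusted p = 0.89 and 0.56). At an unadjusted p under 0.05 the F-test passed 7 of 15 (15.5% of all tested), and SAM called 10 of 15 (7.41% of all). At the adjusted threshold the F-test called 5 of them, against 1.93% of all (limma adjusted p in parentheses): Ier5 (0.0148), Egr3 (0.0721), Nr4a3 (0.121), Egr1 (0.157) and Nr4a2 (0.194). Ier5 measured 10.13, 10.18 and 10.04 at ZT3, 10.37, 10.52 and 10.46 at ZT9, 11.04, 11.22 and 11.57 at ZT15, and 10.72, 10.95 and 10.85 at ZT21. Its dark-phase mice lay above all light-phase mice as those of Jdp2 did, and its difference of 0.78 was called (limma adjusted p = 0.00861). Arc measured 7.26, 8.66 and 10.41 at ZT3, 10.71, 11.25 and 10.87 at ZT9, 9.37, 11.36 and 12.42 at ZT15, and 9.52, 10.56 and 11.00 at ZT21, in the same order of mice as Fos at ZT3, ZT15 and ZT21. The list's SD between mice of 1 time ran from 0.15 for Ier5 to 1.26 for Npas4, so it held genes with spreads like that of Jdp2 and like that of Fos.

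No tested partner, upstream factor or modulator of AP-1 was called over the 4 times by limma, against 1.93% of all tested probe sets. At that share, lists this short can hold 0 calls. Over all tested probe sets, 15.5% passed the F-test at an unadjusted p under 0.05 and 7.41% were called by SAM. Of the other AP-1 and Maf genes 6 of 11 listed were tested and 0 were called, with 2 at an unadjusted p under 0.05 and 0 by SAM. Mafg, a small Maf protein, had a range of 0.39 with its highest mean at ZT15 (limma adjusted p = 0.309). Atf7 had a range of 0.51 with its highest mean at ZT3 (limma adjusted p = 0.313). Atf2, a partner of Jdp2, had a range of 0.36 (limma adjusted p = 0.404). Of the kinases and factors upstream of AP-1 genes 16 of 19 were tested and 0 were called (4 at an unadjusted p under 0.05, 2 by SAM). Crem, a cAMP response element modulator, had a range of 0.73 with its highest mean at ZT15 (limma adjusted p = 0.228), and the Jun kinase gene Mapk8 a range of 0.75 (limma adjusted p = 0.281). The kinase gene Rps6ka5 had a range of 0.36 with its lowest mean at ZT15 (limma adjusted p = 0.286). Srf, the factor of the CArG box, had a range of 0.39 with its highest mean at ZT15 (limma adjusted p = 0.314). Of 6 modulators of AP-1 proteins, 0 were called (0 at an unadjusted p under 0.05, 0 by SAM), and Hdac3, a deacetylase that Jdp2 recruits, had a range of 0.42 (limma adjusted p = 0.417).

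Among genes reported as AP-1 targets, 10 of 15 were tested. At an unadjusted p under 0.05 the F-test passed 3 of 10 (15.5% of all tested), and SAM called 2 (7.41% of all). At the adjusted threshold the F-test called 1 (1.93% of all), Nptx2, which encodes a secreted neuronal pentraxin. It had its highest mean at ZT15, 8.97 ± 0.26, and its lowest at ZT9, 7.82 ± 0.28 (SD, n = 3 each), a range of 1.16 (SE 0.16, limma adjusted p = 0.0467). Cdkn1a (range 0.69, limma adjusted p = 0.256), Penk (0.69, 0.312) and Ccnd1 (0.59, 0.332) were not called. The list's median difference between dark and light was 0.13, against 0.01 over all tested probe sets.

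Markers of the cell types in or near the dissected tissue were set beside these results. In bulk tissue, fewer cells of a type and less RNA per cell cannot be told apart. Of 39 tested markers in the 10 lists, 1 passed the F-test, Cldn5 of endothelium (limma adjusted p = 0.0602), against 1.93% of all tested probe sets. Between dark and light limma called 0 of them, against 0.0937% of all. Both counts are near those shares. The mean level of the excitatory neuron markers lay between 10.98 and 11.29 in all 12 mice, and Slc17a7, Tbr1, Neurod6 and Camk2a were all bright enough to be tested. That mean does not show that Camk2a was highest at ZT3 and Neurod6 at ZT21 (limma F-test, unadjusted p = 0.035 and 0.048). Of 6 microglia markers, 3 had an unadjusted p under 0.05 between dark and light in limma (15.3% of all tested). Of these, C1qa and C1qb were higher and P2ry12 lower in the dark phase. The choroid plexus list, which is no tissue of the cortex, ranged from 6.69 to 7.08 at ZT3, 7.01 to 9.61 at ZT9, 7.04 to 8.28 at ZT15 and 6.90 to 7.32 at ZT21. Its marker Ttr was at 14.82 in mouse 3 of ZT9 and at 14.18 in mouse 1 of ZT15, and between 9.22 and 12.40 in the other 10. Without mouse 3 of ZT9 the dark-phase difference of Jdp2 was 0.62 (limma adjusted p = 0.121), and without mouse 1 of ZT15 it was 0.69 (0.041). Mouse 1 of ZT15 was also the lowest of its time in Fos, Fosb and Junb. The part of these tissue differences in the spread of Fos and Junb was not tested.

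The 3 remaining probe sets were too dim to be tested. Atf3, a repressor and activator induced by cell stress that also pairs with Jun, lay between 3.04 and 3.29, and its highest value was in mouse 3 of ZT15. Jdp2 1424972_at lay between 1.56 and 1.65 and Jund 1440265_at between 2.40 and 2.50, near the lowest values of the arrays. With all probe sets tested, limma gave these 3 adjusted p of 0.861, 0.980 and 0.953 over the 4 times. Low signals of this kind have no reliable order, so no difference was drawn from them.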

How the data were processed

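Total RNA of the prefrontal cortex of 12 mice was hybridised to Affymetrix Mouse430_v2 arrays, 1 mouse per array and 3 per time, the mice being separate animals by the study's methods. The authors deposited 1 signal intensity per probe set and array, on a linear scale, made with GCRMA, for all 45101 probe sets. The filter by MAS5 detection calls that the methods name was not applied to the deposited table. Gene positions came from RefSeq on GRCm38.p6.

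From the deposited intensities, log2 was taken with a floor of 1 that no value fell below. The 64 controls were left out. Of the other 45037 probe sets, 34945 carried 1 gene symbol, 932 several and 9160 none, and 0 AP-1 or Jdp2 probe sets were shared with another gene. The brightest 54.5%, as many as the methods kept by detection calls, were tested, down to a mean log2 of 4.87. The mean intensity per array lay between 344 and 398. The number of arrays limits the precision.

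The 4 times were fitted together in limma 3.58.1 (R 4.3.3) with empirical Bayes moderation. The F-test was read at an adjusted p under 0.20 and contrasts at 0.05, with Benjamini-Hochberg adjustment over all tested probe sets, two-sided. Differences are the first named time minus the second. Correlations between genes were tested two-sided by exact permutation of mice within times in Python 3.11.15 with numpy 2.4.6. The fits were checked on simulated arrays carrying set fold changes. Every probe set of the 8 genes was named, with the 5 most similar genes for Fos and for Jdp2 and up to 4 genes with the smallest p of each list. Others named are Nr4a2, Atf2, Arc, Npas4, Ccn1, Btg2 and the markers, chosen after their values were seen. A gene with several probe sets was represented in lists and correlations by the brightest. The genes and lists were chosen with earlier results of these data known. Alternatives were quantile normalization, median centring, other filters, a trended robust prior, weighted arrays and a block for the replicate number. Multiclass SAM, in a version written anew, and the omission of each array were further alternatives. The test of the difference between the ZT15 minus ZT3 and ZT21 minus ZT9 contrasts and the omission of arrays in the correlations were added after the data were seen.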

Additional observations from a re-analysis of the deposited data

How the results depend on the processing

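With all alternatives, Jdp2 and Fosl2 1437247_at kept their highest mean at ZT15 in 19 of 19 settings. The number of AP-1 and Jdp2 probe sets called over the 4 times was 1 with no filter, 6 with array weights, 0 with the replicate block and 5 by SAM, against 2 in the reported test, and 0 to 3 when an array was left out. Called probe sets in all were 2144 after quantile normalization, 252 after median centring, 194 with no filter, 1330 under a stricter brightness filter, 14718 with array weights, 91 with the replicate block and 1819 by SAM, against 473, and 40 to 3013 when an array was left out. Between dark and light, 0 members were called after median centring, 0 with no filter, 0 with the replicate block and 3 with array weights, against 1, and 0 to 1 when an array was left out. At ZT15 against ZT3, 2 were called after quantile normalization, 2 under a stricter brightness filter, 0 with no filter, 0 with the replicate block and 3 with array weights, against 1, and 0 to 1 when an array was left out. At ZT21 against ZT9, array weights called 1, against 0. Over the steps between neighbouring times, quantile normalization called 1 and array weights 5, against 0, and 0 to 1 when an array was left out. The cause of these shifts was not tested. With array weights the F-test called most of the tested probe sets (14718), so its 6 member calls do not set the members apart. For the contrasts and the steps, no count over all tested probe sets is given under the alternatives. The 3, 3, 1 and 5 member calls with array weights therefore cannot be read as a stronger result for these genes. The replicate numbers share only a number: deviations of arrays with the same number correlated at -0.50 to 0.49 (median -0.09) and those with other numbers at -0.39 to 0.59 (median 0.06). With the replicate block, Jdp2 had a limma adjusted p of 0.205 over the 4 times and 0.091 between dark and light, and Jun 1448694_at had 0.234 over the 4 times.

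Some small differences changed sign. After quantile normalization Junb was at 0.042 for ZT21 minus ZT9 and Jund at -0.047 for ZT15 minus ZT3, and with array weights Fosl2 1437247_at was at -0.12 for ZT21 minus ZT9. When an array was left out, ZT21 minus ZT9 ran from -0.20 to 0.29 for Junb, -0.44 to 0.34 for Fos, -0.26 to 0.033 for Jun 1417409_at and -0.099 to 0.0052 for Fosl2 1422931_at. Fosl2 1422931_at ran from -0.051 to 0.017 for dark minus light and -0.038 to 0.096 for ZT15 minus ZT3, and Jund from -0.074 to 0.003 for dark minus light. Of the 21 pairs of genes, 0 to 4 passed when an array was left out, with 432 orders of mice in place of 1296, among them Jun with Jund in 2 omissions and Jun with Jdp2 in 1, which had not passed with all arrays. With 3 mice per time, single probe sets with wide spreads such as Fos and Junb can only show large differences.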
